A study of Mus musculus with 8 samples.

Results

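Semaphorins, plexins, Slits, Robos and netrins with their receptors were examined as 44 genes of the 39179 genes counted, in mouse pancreatic ductal adenocarcinoma (PDAC) cells that overexpress WT-USP21 or ED-USP21. The 44 rows were taken by gene symbol, and all 44 were found. They are 7 class 3 semaphorins, 6 class 4 semaphorins, 7 semaphorins of classes 5 to 7, 9 plexins, 3 Slits, 4 Robos, 2 netrins and 6 netrin receptors. USP21 is a deubiquitinating enzyme, and the meaning of ED is left unexplained in the labels. The cells come from iKPC, a genetically engineered mouse model of PDAC, and all of them carry the alleles ROSA_rtTA, a doxycycline-dependent transactivator, and p48-Cre, which places Cre under a pancreas-directed promoter. Whether doxycycline was present during culture is not stated in the labels. There were 4 WT-USP21 libraries and 4 ED-USP21 libraries, 1 of each from each of 4 cell lines. The labels give lines 1 and 2 the background FVB/C57Bl6, and lines 3 and 4 the background C57BL/6. Parental cells lacking both constructs were not analysed here. The lines are the biological replicates per the labels, and each construct was sequenced once per line, so a difference within 1 line is a single value with no test. The labels state neither age nor sex of the source mice.

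Semaphorins are secreted or membrane-bound proteins that steer axons and other moving cells, mostly by repelling them. Plexins are their receptors, and the secreted class 3 semaphorins mostly need a neuropilin beside the plexin. Slits are secreted repellents read by Robo receptors, and netrins attract through Dcc and Neo1 or repel through the Unc5 receptors. In the pancreas these genes are known as a pathway often altered in PDAC, where tumours grow along nerves, and the same ligands also act on blood vessels and on the tumour cells themselves.

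Sequencing gave 72828184 to 107551210 gene counts per library. The count of Usp21 may hold reads of the construct as well as of the mouse gene, and how far it does is not known. It was at 147, 944, 539 and 941 CPM (the usual per-library scaling of counts) in WT-USP21 libraries of lines 1 to 4, against 1658, 3133, 1662 and 2721 CPM in ED-USP21 libraries. The Usp21 count thus moved with the construct in 4 of 4 lines, and with line 1, where the ED-USP21 library stood 11.3-fold above its partner compared with 2.89-fold to 3.32-fold in lines 2 to 4. Its part in the results was not tested. Of 10 epithelial identity genes, 8 were at 1 CPM or more in every library, with summed levels of 7836 to 13535 CPM with WT-USP21 and 8428 to 11265 CPM with ED-USP21. Epcam was at 5.35 CPM with WT-USP21 and 3.40 CPM with ED-USP21 in line 1, and at 0.139 to 0.314 CPM with WT-USP21 and 0.0645 to 0.189 CPM with ED-USP21 in lines 2 to 4. Of the abundant epithelial genes, Cdh1 was at 545, 302, 373 and 289 CPM with WT-USP21 in lines 1 to 4, against 330.1, 459, 418 and 477 CPM with ED-USP21. Krt19 was at 2588, 1125, 1141 and 961 CPM with WT-USP21, against 1939, 1455, 1676 and 1715 CPM with ED-USP21. Muc1 was at 168, 146, 145 and 116 CPM with WT-USP21, against 53.3, 211, 193 and 199.8 CPM with ED-USP21. These 3 genes were named after their values were seen, and in each the WT-USP21 library was the higher of the pair in line 1 and the lower in lines 2 to 4. Krt7, Krt8 and Elf3 had this order too, whereas Krt18, Epcam, Cldn4 and Sox9 did not.

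Markers of other cells in which axon guidance genes are usually studied were examined too, and their part in the results was not tested. Neuron markers summed to 6.48 to 7.49 CPM with WT-USP21 and 5.43 to 8.87 CPM with ED-USP21, and 5 of 10 (Rbfox3, Syt1, Stmn2, Elavl4 and Nefm) were below 0.1 CPM in every library. Schwann cell and glia markers summed to 71.4 to 129.9 CPM with WT-USP21 and 91.2 to 118 CPM with ED-USP21, mostly Mbp and Erbb3, while Foxd3 was below 0.1 CPM in every library. Mbp was at 57.6 to 82.8 CPM with WT-USP21 and 60.2 to 82.3 CPM with ED-USP21, and Erbb3, a receptor that epithelial cells also carry, was at 58.1, 11.4, 17.1 and 11.0 CPM with WT-USP21 in lines 1 to 4, against 30.4, 28.4, 33.2 and 33.6 CPM with ED-USP21. Erbb3 was thus the higher with WT-USP21 in line 1 and the lower in lines 2 to 4. Fibroblast markers summed to 7.51 to 19.2 CPM with WT-USP21 and 5.85 to 9.03 CPM with ED-USP21, with Dcn, Lum, Pdgfrb and Thy1 below 0.1 CPM throughout. The highest sum was that of the WT-USP21 library of line 4. Col1a1, Col1a2 and Col3a1 were there at 4.80, 5.33 and 3.17 CPM, against 1.35, 0 and 0.0129 CPM in the ED-USP21 library of that line. Endothelial markers summed to 2.43 to 7.61 CPM with WT-USP21 and 0.665 to 1.01 CPM with ED-USP21, through different genes in line 1 and in lines 2 to 4. In lines 2 to 4 most of the WT-USP21 sum was Kdr, at 5.11 to 7.07 CPM, against 0.373 to 0.538 CPM with ED-USP21. In line 1 Kdr was at 0.0435 CPM with WT-USP21 and 0.0193 CPM with ED-USP21. There the WT-USP21 sum was mostly Cdh5, at 2.23 CPM against 0.385 CPM with ED-USP21. Erg and Emcn were below 0.1 CPM throughout. Leukocyte markers, mostly Cd68, summed to 5.15 to 6.2 CPM in line 1 and 9.97 to 16.3 CPM in lines 2 to 4, with Cd3e and Itgam below 0.1 CPM throughout. In bulk RNA, fewer cells of a type and less RNA per cell cannot be told apart.

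Of the 44 genes, 28 were at 1 CPM or more in every library, and 14 were below 1 CPM in every library. Levels can be set side by side between genes only per length, here in CPM per kilobase (kb) of annotated exons, as mean ± SD over 8 libraries. Plexins held the largest sum of mean levels, 166 CPM per kb over 9 genes, and 129 ± 10.8 CPM per kb of it was Plxnb2, the receptor for Sema4c. Class 3 semaphorins summed to 97.0 CPM per kb, of which Sema3c, a secreted ligand of neuropilin and plexin complexes, made up 66.8 ± 5.26. Netrin receptors summed to 83.0 CPM per kb, led by Unc5b at 62.0 ± 14.5 and Neo1 at 20.8 ± 3.78. Both read netrins, Unc5b as a repulsive receptor and Neo1 (neogenin) as a relative of Dcc.

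Class 4 semaphorins summed to 56.7 CPM per kb, with Sema4b at 35.3 ± 8.21 and Sema4a at 13.9 ± 3.52. Sema3e, the ligand that binds Plxnd1 without a neuropilin, was at 18.6 ± 4.09 CPM per kb, and Plxnd1 itself at 10.6 ± 1.55. Plxna1 was at 14.8 ± 1.33 CPM per kb and Sema3b at 8.73 ± 1.36, which closed the 10 highest. Taking the larger SD of each pair of neighbours in this order, Plxnb2 and Sema4b stand apart from theirs by more than 1 SD. Sema3c and Unc5b do not stand apart from each other by that much. Neither do neighbours within the run Neo1, Sema3e, Plxna1, Sema4a and Plxnd1, while Plxnd1 is more than 1 SD above Sema3b.

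The Slit and Robo arm was nearly silent on the receptor side. The 4 Robos together summed to 0.0196 CPM per kb, against 1.12 CPM per kb for the 3 Slits. The 2 netrins summed to 4.88 CPM per kb, nearly all of it Ntn4 at 4.63 ± 0.924. Dcc had 12 reads in all 8 libraries, Unc5a had 6, Slit3 had 7 and Robo3 had 1. No read was counted for Sema5b, Robo4, which is known from endothelium, or Unc5d. For a library, a count of 0 allows up to 3 counts, which is 0.0289 CPM in the deepest library and 0.0405 CPM in the shallowest. These limits, like the intervals on read counts, cover counting error only.

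**Figure D1:**
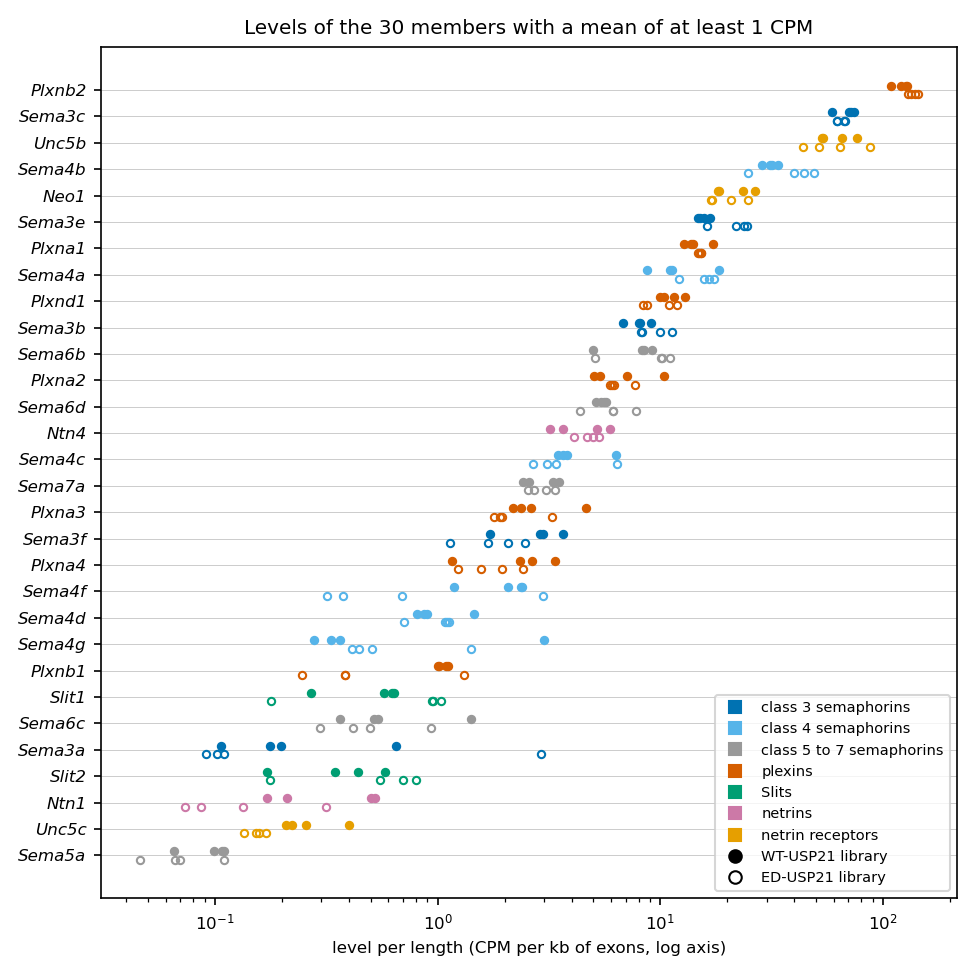
Level per length (CPM per kb of exons, log axis) of the 30 genes with a mean of at least 1 CPM, 1 point per library, filled for WT-USP21 and open for ED-USP21, coloured by role. Plxnb2, Sema3c and Unc5b lie highest, and the open points of Sema4f and Plxnb1 split into 3 low libraries and 1 high one.

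Promoters are shown for 4 of the genes, chosen after their values were seen because the results turn on them: Sema4f and Plxnb1, which were higher together with WT-USP21 in lines 2 to 4, Sema3e, which was lower there, and Sema4g, which was high in line 1 with either construct. Each line gives 250 bases before to 50 bases after a RefSeq gene start of GRCm38.p6, 5′ to 3′ on the gene's strand. Capitals mark letters searched on either strand. One motif was TTCAAAG, a core bound by the TCF and LEF factors of Wnt signalling. A variant of that core, ATCAAAG, differs in its first letter only. The GC box, GGGCGG, was the third, and no match of a core overlapped one of the GC box in these windows.
Sema4f: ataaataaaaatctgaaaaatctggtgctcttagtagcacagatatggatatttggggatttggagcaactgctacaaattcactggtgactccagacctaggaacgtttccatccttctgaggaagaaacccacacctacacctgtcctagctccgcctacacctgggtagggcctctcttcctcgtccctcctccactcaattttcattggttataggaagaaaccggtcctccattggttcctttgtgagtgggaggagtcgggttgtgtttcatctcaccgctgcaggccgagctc
Plxnb1: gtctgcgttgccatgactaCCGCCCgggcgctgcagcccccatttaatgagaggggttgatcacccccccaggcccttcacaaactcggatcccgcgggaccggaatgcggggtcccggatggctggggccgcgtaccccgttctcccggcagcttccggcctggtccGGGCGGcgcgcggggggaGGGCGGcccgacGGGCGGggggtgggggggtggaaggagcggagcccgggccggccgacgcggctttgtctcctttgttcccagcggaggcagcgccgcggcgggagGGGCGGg
Sema3e: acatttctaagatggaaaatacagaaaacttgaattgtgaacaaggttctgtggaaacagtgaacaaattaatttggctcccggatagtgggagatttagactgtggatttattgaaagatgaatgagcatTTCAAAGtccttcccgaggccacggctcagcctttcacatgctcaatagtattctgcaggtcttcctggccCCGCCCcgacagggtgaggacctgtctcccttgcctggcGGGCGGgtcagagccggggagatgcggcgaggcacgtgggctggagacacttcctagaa
Sema4g: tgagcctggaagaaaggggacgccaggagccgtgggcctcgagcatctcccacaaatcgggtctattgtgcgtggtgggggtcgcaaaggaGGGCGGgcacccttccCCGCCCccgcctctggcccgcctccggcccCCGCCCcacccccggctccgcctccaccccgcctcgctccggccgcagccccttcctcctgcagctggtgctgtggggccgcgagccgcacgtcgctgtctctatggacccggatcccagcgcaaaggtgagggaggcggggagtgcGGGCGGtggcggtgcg

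The Plxnb1 window (chr9:109095186-109095485, plus strand) holds 36 CpG sites and 5 GGGCGG matches. The Sema4g window (chr19:44989094-44989393, plus strand) holds 30 CpG sites and 4 such matches. In the Sema3e window (chr5:14025026-14025325, plus strand) there are 11 CpG sites, 2 GGGCGG matches and 1 TTCAAAG match. The Sema4f window (chr6:82939720-82940019, minus strand) has 7 CpG sites and none of these letters. The median number of CpG sites was 7 over all 32851 promoters and 17.5 over the promoters of the 44 genes. Promoters were found for 35 of the 44 genes, 48 promoters in all, because some genes have several starts. GGGCGG was in 32 of the 48 and in 35.7% of all promoters of this length, TTCAAAG in 1 of 48 and in 5.14% of all, and ATCAAAG in 0 of 48 and in 3.73% of all. A match describes letters only, and says nothing of binding.

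The main question of the design is what WT-USP21 changes relative to ED-USP21. Over the libraries as they stand, 0 of the 33 genes tested passed an adjusted p of 0.05. The test was edgeR's quasi-likelihood test with Benjamini-Hochberg adjustment, and it called 0% of the 16192 genes tested. At an unadjusted p under 0.05 there were 2 of the 33 and 392 of all 16192, and DESeq2 and limma-trend each called 0 of them as well (3 genes, Sema3a, Sema4f and Sema4g, got no p from DESeq2 there), against 0.371% and 0.0185% of all genes. With the cell line as a block, so that each WT-USP21 library was set against the ED-USP21 library of its line, 0 of 33 passed, against 0.0247% of all genes tested (4 of 16192). The unadjusted p was under 0.05 for 10 of the 33 and for 1341 of all 16192, limma-trend called 0 and DESeq2 called 6. Those 6 were Sema3f, Plxna3, Sema4f, Unc5c and Plxnb1, higher with WT-USP21, and Sema3e, lower. DESeq2 called 2.51% of all genes in that comparison. The median log2 difference of the 33 was 0.0079 and that of all genes -0.0044, and the median size regardless of sign was 0.22 for the 33 and 0.11 for all genes.

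Line 1 decided these counts. Without its 2 libraries, 10 of 33 passed within lines 2 to 4 in edgeR, 5 higher and 5 lower with WT-USP21, where 4.57% of 16326 genes were called. Sema4f, Plxnb1, Ntn1, Sema3f and Plxna4 were higher, and Sema3e, Sema4a, Sema4b, Sema3b and Slit1 were lower. Leaving out line 2, 3 or 4 in its place gave 0 calls among these genes and 0 among all genes tested (16160, 16166 and 16196). Whether the construct difference in line 1 departs from that in lines 2 to 4 was tested directly, as the interaction of construct and line 1. It passed for 8 of 33 genes, 24.2%, where 6.27% of all genes tested passed (1015 of 16192). These were Sema4g, Sema4a and Sema3e, where the WT-USP21 minus ED-USP21 difference was more positive in line 1, and Sema4f, Plxnb1, Ntn1, Sema3a and Plxna4, where it was more negative. Line 1 has 1 such difference only and was assumed to vary like the other lines. Without line 2 the same test called 0 of the 33 and 0 of 16160 genes, with 13 of the 33 and 2847 genes at an unadjusted p under 0.05. The 8 then had adjusted p values of 0.0707 to 0.130. Without line 4 it passed for 6 of 34, where 4.32% of all genes passed.

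**Figure D2:**
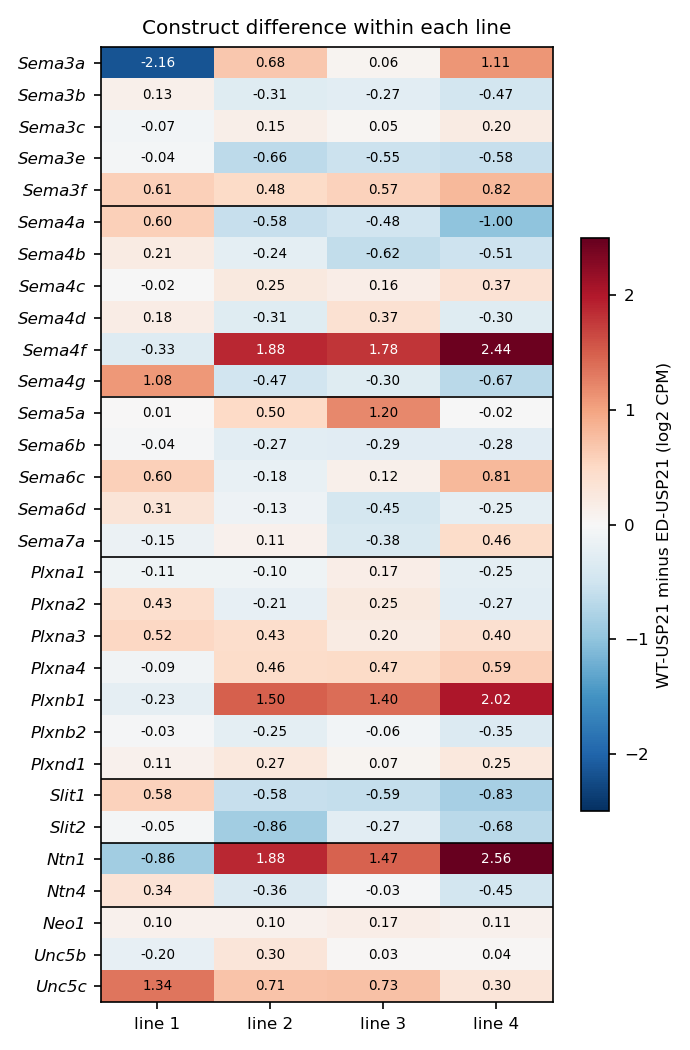
Difference of log2 CPM, WT-USP21 minus ED-USP21, in each of lines 1 to 4 for the 30 genes with a mean of at least 1 CPM, in order of role, with horizontal lines between roles. Sema4f, Plxnb1 and Ntn1 are positive in lines 2 to 4 (1.40 to 2.56) and negative in line 1, while Sema3f and Plxna3 are positive in all 4.

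Among the secreted class 3 semaphorins, Sema3f, a ligand read mainly with Nrp2, gave the smallest p of the 33 genes tested within lines. Its level in lines 1 to 4 was 8.98, 15.0, 19.1 and 15.5 CPM with WT-USP21, against 5.89, 10.8, 12.8 and 8.77 CPM with ED-USP21. Each WT-USP21 library was above its partner, but the groups overlap, since line 1 was lower than the other lines with both constructs. The log2 difference within lines was 0.62 (SE 0.09), which missed the threshold over all genes in edgeR (adjusted p = 0.168) and passed it in DESeq2 (adjusted p = 2.29e-06). In lines 2 to 4 alone it was 0.63 (SE 0.09, edgeR adjusted p = 0.0201).

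Sema3e was at 146, 139.5, 155 and 136 CPM with WT-USP21, against 150.3, 221, 227 and 204 CPM with ED-USP21. The line 1 ED-USP21 library lay among the WT-USP21 libraries, and the other 3 ED-USP21 libraries were above all of them. Within lines the log2 difference was -0.46 (SE 0.11, edgeR adjusted p = 0.323; DESeq2 adjusted p = 0.0175). Sema3e was lower with WT-USP21 in lines 2 to 4, where the value was -0.59 on the log2 scale (SE 0.06, edgeR adjusted p = 0.00880). Its interaction with line 1 was 0.55 (SE 0.11, edgeR adjusted p = 0.0417). That call was lost when line 4 was left out.

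Sema3a, the prototype repellent of the class, was set apart by line 1. It was at 9.01, 2.46, 1.48 and 2.74 CPM with WT-USP21, against 40.3, 1.53, 1.42 and 1.26 CPM with ED-USP21. In line 1 the ED-USP21 library was 4.47-fold above its WT-USP21 partner, while in lines 2 to 4 the WT-USP21 library was the higher of the pair. The interaction was -2.79 on the log2 scale (SE 0.38, edgeR adjusted p = 0.0177). Lines 2 to 4 alone gave 0.63 (SE 0.26, edgeR adjusted p = 0.267).

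Sema3b, which with Sema3f is known in human tumours as a growth-restraining semaphorin, was at 43.5, 38.5, 32.5 and 38.9 CPM with WT-USP21, against 39.7, 47.6, 39.2 and 53.8 CPM with ED-USP21. It was lower with WT-USP21 in lines 2 to 4 (log2 -0.34, SE 0.07, edgeR adjusted p = 0.0444), where the groups do not overlap, while over all 4 lines they do. Sema3c, the most abundant semaphorin per length, was at 422, 530.3, 501 and 513 CPM with WT-USP21, against 443, 477, 484 and 446 CPM with ED-USP21. Its difference within lines, 0.08 (SE 0.07, edgeR adjusted p = 0.825), did not pass. Sema3d and Sema3g were below 1 CPM in every library and were not tested between constructs.

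Of the 6 class 4 semaphorins, which span the membrane, Sema4f differed most. Studied mainly in nerve tissue, it was at 12.5, 6.26, 12.7 and 11.0 CPM with WT-USP21, against 15.7, 1.69, 3.67 and 2.0 CPM with ED-USP21. With ED-USP21 the line 1 library was the highest of all 8, and the other 3 were below every WT-USP21 library. In lines 2 to 4 the log2 difference was 2.05 (SE 0.16, edgeR adjusted p = 0.00638). With all 4 lines it was 1.47 (SE 0.47, edgeR adjusted p = 0.465), and the interaction with line 1 was -2.37 (SE 0.30, edgeR adjusted p = 0.0161).

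Sema4a, a ligand best known from immune cells, was at 98.7, 59.6, 61.3 and 47.2 CPM with WT-USP21, against 65.3, 89.2, 85.3 and 94.4 CPM with ED-USP21. The WT-USP21 library was the higher of the pair in line 1 and the lower in lines 2 to 4, where the groups do not overlap. The difference in lines 2 to 4 was -0.68 (SE 0.11, edgeR adjusted p = 0.0244), and the interaction was 1.28 (SE 0.21, edgeR adjusted p = 0.0239). Sema4b showed the same order, with 161, 191, 179 and 175 CPM with WT-USP21, against 139.8, 225, 276 and 249.5 CPM with ED-USP21. It was lower with WT-USP21 in lines 2 to 4 (log2 -0.45, SE 0.08, edgeR adjusted p = 0.0374), and its interaction missed the threshold (0.66, SE 0.17, edgeR adjusted p = 0.0752). The epithelial genes Cdh1, Krt19 and Muc1 and the glia marker Erbb3 had the same order between constructs in each line. Among the other epithelial genes Krt7, Krt8 and Elf3 shared it, whereas Krt18, Epcam, Cldn4 and Sox9 did not. The part of these genes was not tested.

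Sema4g was at 25.9, 3.15, 2.89 and 2.40 CPM with WT-USP21, against 12.2, 4.38, 3.56 and 3.84 CPM with ED-USP21. Line 1 was far above the other lines with both constructs, and there the WT-USP21 library was the higher of the pair, while the ED-USP21 library was the higher in the other 3. The interaction was 1.57 (SE 0.23, edgeR adjusted p = 0.020). Sema4c, a ligand of Plxnb2, was at 29.0, 16.8, 17.5 and 15.9 CPM with WT-USP21, against 29.4, 14.2, 15.6 and 12.3 CPM with ED-USP21. Its construct difference within lines was 0.19 (SE 0.09, edgeR adjusted p = 0.646). Sema4d, the ligand of Plxnb1, ranged from 5.45 to 11.1 CPM over the 8 libraries and its difference within lines was -0.01 (SE 0.15, edgeR adjusted p = 0.993). Reads of Sema4c share 7.27% of its annotated exon bases with a transcript on the other strand, and whether the counting used strand is not known, which leaves these reads impossible to tell apart.

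No semaphorin of classes 5 to 7 passed in edgeR between constructs or in the interaction with line 1. The most regular of them was Sema6b, a transmembrane ligand, at 19.7, 36.4, 32.9 and 33.4 CPM with WT-USP21, against 20.3, 43.8, 40.1 and 40.6 CPM with ED-USP21. The WT-USP21 library was the lower of the pair in 4 of 4 lines, by little in line 1, and the difference within lines was -0.22 (SE 0.07, edgeR adjusted p = 0.455). Within lines 2 to 4 it was -0.27 (SE 0.06, edgeR adjusted p = 0.0511). Sema6d, a ligand of Plxna1, Sema6c, Sema7a, a lipid-anchored ligand of Plxnc1, and Sema5a had adjusted p values of 0.744 to 0.997 within lines. Sema6a had 19 reads in the 8 libraries.

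The plexin that moved most was Plxnb1, the receptor of Sema4d. It was at 10.7, 10.4, 9.75 and 9.64 CPM with WT-USP21, against 12.5, 3.67, 3.68 and 2.36 CPM with ED-USP21. The 4 WT-USP21 libraries were close together, and the ED-USP21 libraries were 1 above and 3 well below them. In lines 2 to 4 the log2 difference was 1.65 (SE 0.15, edgeR adjusted p = 0.00840), with all 4 lines 1.18 (SE 0.37, edgeR adjusted p = 0.453), and the interaction was -1.87 (SE 0.29, edgeR adjusted p = 0.0213). An antisense gene covers 2.68% of its exon bases.

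Plxna4 was at 16.4, 37.6, 47.5 and 33.2 CPM with WT-USP21, against 17.5, 27.3, 34.2 and 22.1 CPM with ED-USP21. Line 1 was the lowest line with both constructs, and the WT-USP21 library was the higher of the pair in the other 3. The difference in lines 2 to 4 was 0.51 (SE 0.06, edgeR adjusted p = 0.0125). Its interaction, -0.60 (SE 0.13, edgeR adjusted p = 0.0462), was lost when line 4 was left out. Plxna3, a partner of Nrp2 in reading Sema3f, was at 36.7, 20.8, 17.1 and 18.7 CPM with WT-USP21, against 25.6, 15.4, 15.0 and 14.1 CPM with ED-USP21. The WT-USP21 library was the higher of each pair, and the difference, 0.39 (SE 0.08), passed in DESeq2 (adjusted p = 0.00440) and not in edgeR (adjusted p = 0.273).

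Plxnb2, the most abundant of the 44 genes per length, was at 977, 935, 993 and 839.7 CPM with WT-USP21, against 997, 1110.4, 1034 and 1071 CPM with ED-USP21. Every ED-USP21 library was above every WT-USP21 library, and the difference within lines was small, -0.17 (SE 0.08, edgeR adjusted p = 0.632). Plxnd1, the receptor of Sema3e, was at 93.9, 76.2, 84.1 and 73.1 CPM with WT-USP21, against 86.8, 63.3, 80.3 and 61.3 CPM with ED-USP21. The WT-USP21 library was the higher in 4 of 4 pairs (0.18, SE 0.06, edgeR adjusted p = 0.514), while Sema3e was lower in 4 of 4. Plxna1 and Plxna2 differed within lines by -0.07 (SE 0.08) and 0.05 (SE 0.13), with edgeR adjusted p = 0.881 and 0.961. An antisense gene covers 10.7% of the exon bases of Plxna1. Plxnb3 and Plxnc1 were below 1 CPM in every library.

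**Figure D3:**
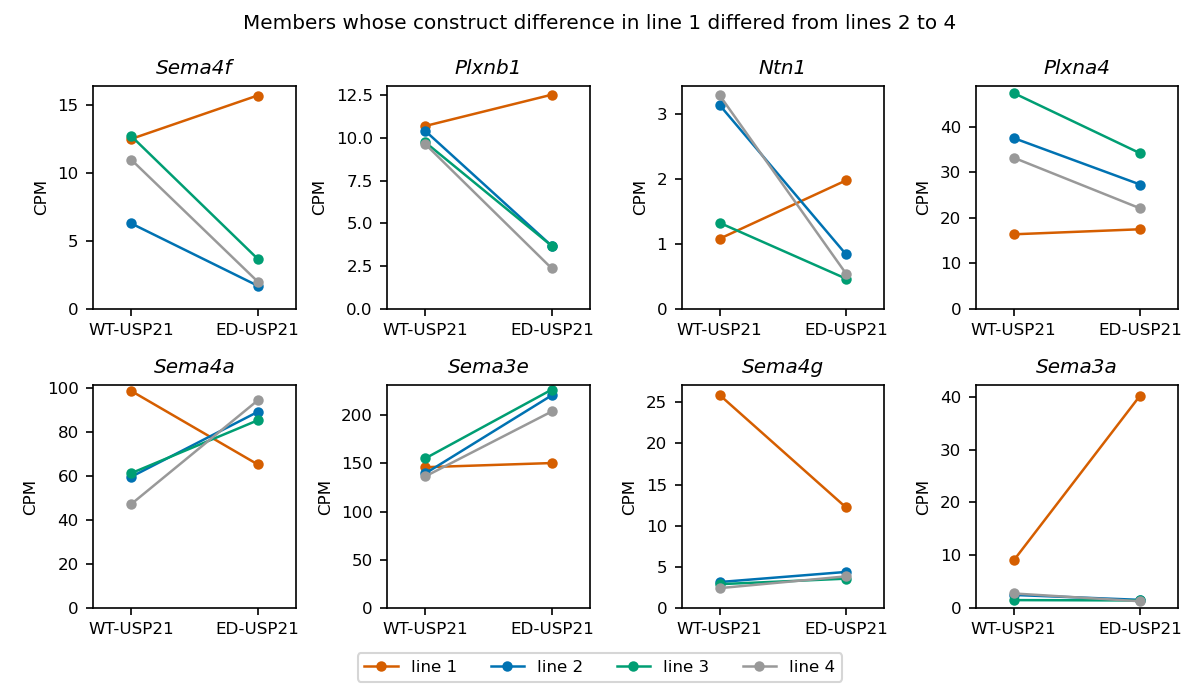
CPM with WT-USP21 (left) and ED-USP21 (right) in each line for the 8 genes whose construct difference in line 1 differed from that in lines 2 to 4, 1 panel per gene with its own axis from 0. For Sema4f, Plxnb1 and Ntn1 lines 2 to 4 are lower with ED-USP21 and line 1 is higher; for Sema4a the order is turned round.

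Slit1 and Slit2, the ligands of the Robo receptors, had lower values with WT-USP21 in each of lines 2 to 4. Slit1 was at 1.6, 3.76, 3.68 and 3.41 CPM with WT-USP21, against 1.06, 5.63, 5.56 and 6.10 CPM with ED-USP21. The groups do not overlap in lines 2 to 4, and the difference passed there (-0.67, SE 0.13, edgeR adjusted p = 0.0459). Slit2 was at 4.35, 11.2, 14.8 and 8.79 CPM with WT-USP21, against 4.51, 20.4, 17.8 and 14.1 CPM with ED-USP21. The WT-USP21 library was below its partner in 4 of 4 lines, narrowly in line 1, and the difference passed neither with all lines (-0.47, SE 0.15, edgeR adjusted p = 0.472) nor in lines 2 to 4 (-0.60, SE 0.12, edgeR adjusted p = 0.0520). The leukocyte marker Cd68 was likewise at 9.53, 12.7 and 9.77 CPM with WT-USP21 in lines 2 to 4. With ED-USP21 it was at 15.5, 15.5 and 12.6 CPM there. Of the other leukocyte markers, all under 1 CPM, Ptprc was lower with WT-USP21 in these lines too. Itgam was higher with WT-USP21 in each of them, Csf1r in lines 3 and 4, and Cd3e and Cd79a in line 3. The part of these markers was not tested. Slit3 had 4 reads with WT-USP21 and 3 reads with ED-USP21. For Robo1 there were 98 reads in the WT-USP21 libraries and 69 in the ED-USP21 libraries, a ratio per library size of 1.32 (95% exact interval 0.963 to 1.83). Robo2 had 32 and 27 reads with WT-USP21 and ED-USP21, a ratio of 1.10 (0.641 to 1.92).

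Ntn1, the prototype netrin, had the pattern of Sema4f and Plxnb1 at a low level. It was at 1.08, 3.14, 1.32 and 3.29 CPM with WT-USP21, against 1.97, 0.837, 0.462 and 0.541 CPM with ED-USP21. The line 1 WT-USP21 library was below its partner and the other 3 were above theirs. The log2 difference was 2.01 in lines 2 to 4 (SE 0.28, edgeR adjusted p = 0.0174) and 1.33 with all lines (SE 0.59, edgeR adjusted p = 0.638), and the interaction was -2.88 (SE 0.54, edgeR adjusted p = 0.0349). Ntn4 was at 22.3, 11.9, 19.4 and 13.6 CPM with WT-USP21, against 17.5, 15.3, 19.8 and 18.7 CPM with ED-USP21, a difference within lines of -0.13 (SE 0.14, edgeR adjusted p = 0.886).

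Among the netrin receptors, Unc5c was the one with a difference of the same direction in 4 of 4 lines and some size. It was at 7.67, 4.24, 4.90 and 4.01 CPM with WT-USP21, against 3.01, 2.58, 2.94 and 3.24 CPM with ED-USP21. Every WT-USP21 library was above every ED-USP21 library, with a gap from 3.24 to 4.01 CPM. Within lines the log2 difference was 0.78 (SE 0.19), past the threshold in DESeq2 (adjusted p = 0.0176) and not in edgeR (adjusted p = 0.337). Neo1 was at 232, 159, 205 and 159 CPM with WT-USP21, against 216, 148, 181 and 147 CPM with ED-USP21, and was higher with WT-USP21 in each line by little (0.12, SE 0.05, edgeR adjusted p = 0.615). Unc5b was at 478, 335, 411 and 333 CPM with WT-USP21, against 548, 273, 403 and 324 CPM with ED-USP21. That order turned round in line 1, and the difference within lines was 0.04 (SE 0.09, edgeR adjusted p = 0.946). Dcc had 1 read with WT-USP21 and 11 reads with ED-USP21, a ratio of 0.0847 (95% exact interval 0.00197 to 0.583) on too few reads to be tested across lines.

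**Figure D4:**
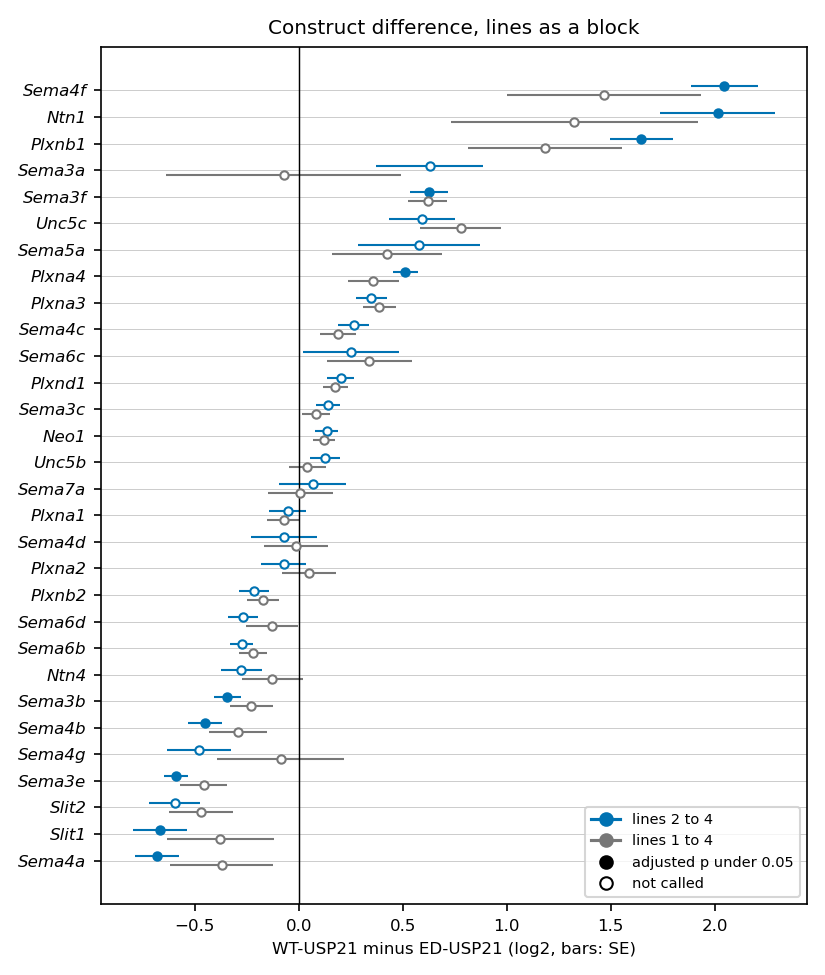
Log2 difference, WT-USP21 minus ED-USP21, with the line as a block (points, bars 1 SE) for the 30 genes with a mean of at least 1 CPM, from lines 2 to 4 in blue and from all 4 lines in grey. Filled points passed an adjusted p of 0.05 in edgeR: 10 blue points and no grey point.

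The second question is how line 1 differs from lines 2 to 4, for which both libraries of each line were added up and 1 line stood against 3. In edgeR 19 of 36 genes tested passed, 11 higher and 8 lower in line 1, 52.8% where 31.6% of all 19125 genes tested passed. Taking the libraries of 1 construct alone, 15 of 36 passed with WT-USP21 (25.3% of all genes) and 22 of 36 with ED-USP21 (28.8%), and without line 4, 18 of 36 passed (21.2%). Line 1 has no replicate line, and this fit also keeps genes that are high on 1 side alone. Sema3d and Sema3g passed its filter only through line 1, and Robo1 and Robo2 only through lines 2 to 4. Their calls are in the 19 and follow in part from that filter. Among genes with a mean of at least 5 CPM, 14 of 25 passed, 6 higher and 8 lower, against 38.8% of all such genes. The median log2 difference of the 36 was 0.13 and that of all genes -0.04. Higher in line 1 were Sema3a, Sema3d, Sema3g, Sema4c, Sema4f, Sema4g, Sema6c, Plxna2, Plxna3, Plxnb1 and Unc5b, and lower were Sema3f, Sema4b, Sema6b, Plxna4, Slit1, Slit2, Robo1 and Robo2. Lines 1 and 2 carry the same background label. Summed epithelial markers, mostly keratins, were at 11265 to 13535 CPM in line 1 and 7836 to 10362 CPM in lines 2 to 4. Krt8, Krt18, Krt19, Epcam and Cldn4 were highest in line 1 with each construct. Sox9 was lowest there with each, at 9.02 and 13.6 CPM, against 21.7 to 28.8 CPM in lines 2 to 4. With WT-USP21, Krt7, Cdh1 and Muc1 were highest in line 1. With ED-USP21, Cdh1, Muc1 and Elf3 were lowest in line 1. The part of these markers was not tested.

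Within the class 3 semaphorins the line difference ran both ways. Sema3a averaged 24.6 CPM in line 1, against 1.81 ± 0.317 CPM in lines 2 to 4 (SD, n = 3 lines), which is 3.83 higher on the log2 scale (SE 0.20, edgeR adjusted p = 0.000167). The line 1 libraries, 9.01 CPM with WT-USP21 and 40.3 CPM with ED-USP21, were both above all others. Sema3f averaged 7.44 CPM in line 1, against 13.6 ± 2.01 CPM in lines 2 to 4 (-0.88, SE 0.18, edgeR adjusted p = 0.0164).

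Sema3d and Sema3g were read almost only in line 1. Sema3g had 67 reads in line 1, against 6 in lines 2 to 4, a ratio per library size of 30.04 (95% exact interval 13.1 to 84.8). For Sema3d there were 87 reads in line 1, 70 with WT-USP21 and 17 with ED-USP21, against 22 in lines 2 to 4, a ratio of 10.6 (6.60 to 17.8). Both passed the filter on low counts only through line 1, and their levels, at most 0.761 CPM, are low in line 1 too.

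Sema4g showed the largest line difference among genes above 1 CPM after Sema3a. It averaged 19.1 CPM in line 1, against 3.37 ± 0.344 CPM in lines 2 to 4 (2.52, SE 0.14, edgeR adjusted p = 0.000236). Sema4c averaged 29.2 CPM in line 1, against 15.4 ± 1.22 CPM in lines 2 to 4 (0.95, SE 0.12, edgeR adjusted p = 0.00272), while its receptor Plxnb2 was at 987 CPM in line 1 and 997 ± 36.5 CPM in lines 2 to 4 (0.03, SE 0.09, edgeR adjusted p = 0.811). Sema6c averaged 6.99 CPM in line 1, against 2.61 ± 0.414 CPM in lines 2 to 4 (1.43, SE 0.22, edgeR adjusted p = 0.00546). In both Sema4c and Sema6c the line 1 libraries were above all 6 others.

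Sema4f and Sema4b passed over the summed counts but not in WT-USP21 libraries alone. Sema4f averaged 14.1 CPM in line 1, against 6.21 ± 2.11 CPM in lines 2 to 4 (1.18, SE 0.31, edgeR adjusted p = 0.0351), but in WT-USP21 libraries alone the difference was 0.33, nor did it pass among genes with a mean of at least 5 CPM (1.07). Sema4b averaged 151 CPM in line 1, against 216 ± 10.4 CPM in lines 2 to 4 (-0.48, SE 0.10, edgeR adjusted p = 0.0162), and -0.17 in WT-USP21 libraries alone. Plxnb1 showed the same, at 11.6 CPM in line 1 and 6.58 ± 0.534 CPM in lines 2 to 4 (0.81, SE 0.15, edgeR adjusted p = 0.0116), and 0.11 in WT-USP21 libraries alone.

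Sema6b, by contrast, was lower in line 1 with both constructs, at 19.7 CPM with WT-USP21 and 20.3 CPM with ED-USP21, against a mean of 37.8 ± 1.95 CPM in lines 2 to 4 (-0.87, SE 0.10, edgeR adjusted p = 0.00238). Of the A plexins, Plxna3 averaged 31.2 CPM in line 1, against 16.8 ± 1.09 CPM in lines 2 to 4 (0.89, SE 0.11, edgeR adjusted p = 0.00309). Plxna2 averaged 155 CPM in line 1, against 102 ± 8.70 CPM in lines 2 to 4 (0.63, SE 0.11, edgeR adjusted p = 0.0105). Plxna4 went the other way, at 16.9 CPM in line 1 and 33.6 ± 6.67 CPM in lines 2 to 4 (-0.97, SE 0.22, edgeR adjusted p = 0.0215), and did not pass in ED-USP21 libraries alone (-0.65). For Plxna3 the line 1 libraries were above the other 6, as they were for Plxna2, and for Plxna4 and Sema6b they were below the other 6.

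The 4 Slit and Robo genes tested, Slit1, Slit2, Robo1 and Robo2, were lower in line 1, and both Robos passed the filter on low counts only through lines 2 to 4. Slit1 averaged 1.33 CPM in line 1, against 4.69 ± 0.0689 CPM in lines 2 to 4 (-1.78, SE 0.20, edgeR adjusted p = 0.00194), and Slit2 4.43 CPM, against 14.5 ± 2.68 CPM (-1.65, SE 0.24, edgeR adjusted p = 0.00497). In both, the 2 line 1 libraries were below the other 6. Robo1 had 3 reads in line 1 and 164 in lines 2 to 4, a ratio per library size of 0.0492 (95% exact interval 0.0100 to 0.146). Robo2 had no read in line 1 and 59 in lines 2 to 4, and by the 95% exact interval it was at least 5.76-fold lower there. Both genes were at 0.546 CPM or less in every library. Robo2 did not pass in the libraries of either construct alone, Robo1 did not pass in WT-USP21 libraries alone, and Sema3d did not pass in ED-USP21 libraries alone.

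Of the netrin receptors, Unc5b averaged 513 CPM in line 1, against 347 ± 53.7 CPM in lines 2 to 4 (0.60, SE 0.16, edgeR adjusted p = 0.0343). Both line 1 libraries were above the other 6, but the call was lost when line 4 was left out (0.55), in WT-USP21 libraries alone (0.41) and among genes with a mean of at least 5 CPM (0.50). Neo1, at 224 CPM in line 1 and 167 ± 22.8 CPM in lines 2 to 4, did not pass (0.46, SE 0.15, edgeR adjusted p = 0.0634). Neither did Unc5c (0.53, SE 0.17, edgeR adjusted p = 0.0646), Ntn4 (0.31, SE 0.21, edgeR adjusted p = 0.292) or Ntn1 (-0.08, SE 0.50, edgeR adjusted p = 0.916), whose construct difference turned round between the lines. In ED-USP21 libraries alone Ntn1 was higher in line 1 (1.71, edgeR adjusted p = 0.0284).

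**Figure D5:**
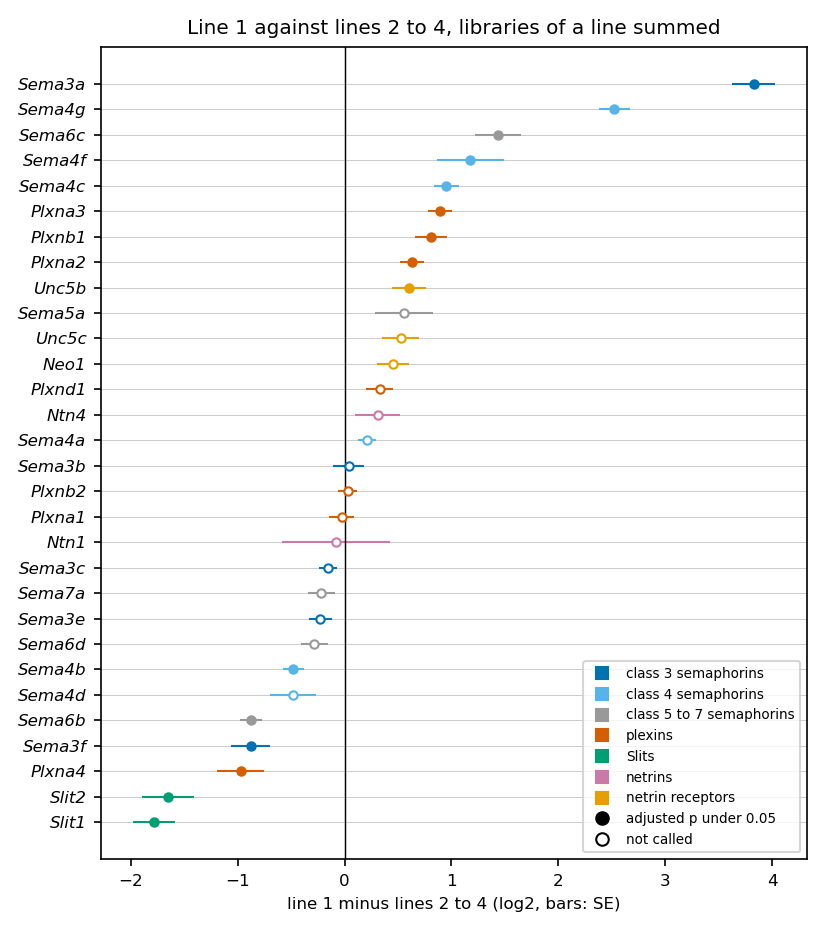
Log2 difference, line 1 minus lines 2 to 4, with the libraries of a line summed (points, bars 1 SE), for the 30 genes with a mean of at least 1 CPM, coloured by role and filled where the edgeR adjusted p was under 0.05. Sema3a (3.83) and Sema4g (2.52) lie highest, and Slit1 (-1.78) and Slit2 (-1.65) lowest.

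Further genes of these pathways were counted from lists of co-receptors, other ligands and intracellular effectors, 89 genes of which 78 were tested between constructs. With the line as a block, 0 of 78 passed in edgeR, 7 had an unadjusted p under 0.05 (1341 of all 16192 genes had), and DESeq2 called 2, Ablim3 and Dpysl3, both higher with WT-USP21. In lines 2 to 4, 4 of 78 were higher with WT-USP21 and 2 lower, where 4.57% of all genes were called, and the interaction with line 1 passed for 5 of 78, where 6.27% of all genes passed. Line 1 against lines 2 to 4 gave 33 higher and 7 lower of 80, where 3552 genes were higher and 2489 lower of all 19125 (31.6%). In the within-line fit 1 effector came closest, Ablim3, an actin-binding LIM protein. It was at 0.598, 3.02, 2.06 and 3.33 CPM with WT-USP21, against 0.222, 0.621, 0.226 and 0.682 CPM with ED-USP21. Each WT-USP21 library was above its partner. The difference missed the threshold with all lines (2.30, SE 0.32, edgeR adjusted p = 0.133) and passed in lines 2 to 4 (2.56, SE 0.27, edgeR adjusted p = 0.00995).

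Both neuropilins, the co-receptors of class 3 semaphorins, had the pattern of Sema4f and Plxnb1. Nrp1 was at 36.6, 12.9, 16.1 and 13.6 CPM with WT-USP21, against 49.2, 6.79, 10.2 and 6.24 CPM with ED-USP21. It was higher with WT-USP21 in lines 2 to 4 (0.90, SE 0.11, edgeR adjusted p = 0.0141), with an interaction of -1.32 (SE 0.20, edgeR adjusted p = 0.0208). Nrp2, named after its values were seen, was at 78.3, 58.5, 63.2 and 60.3 CPM with WT-USP21, against 106, 35.3, 53.7 and 37.5 CPM with ED-USP21 (0.55 in lines 2 to 4, SE 0.10, edgeR adjusted p = 0.0399; interaction -0.98, SE 0.21, edgeR adjusted p = 0.0477). In both genes line 1 was the highest line and the only one in which the ED-USP21 library was the higher of the pair.

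Dpysl3, a cytosolic mediator of semaphorin signals, was at 219, 35.6, 42.4 and 52.5 CPM with WT-USP21, against 236, 14.1, 24.2 and 21.8 CPM with ED-USP21. Line 1 was above the other lines with both constructs, and lines 2 to 4 were higher with WT-USP21 (1.14, SE 0.11, edgeR adjusted p = 0.00880; interaction -1.24, SE 0.21, edgeR adjusted p = 0.0266). The 2 genes that were lower with WT-USP21 in lines 2 to 4, also named after their values were seen, were Itga1 and Flrt3. Itga1, an integrin chain, gave -1.12 (SE 0.13, edgeR adjusted p = 0.0119), and Flrt3, a membrane ligand of Unc5 receptors, -0.49 (SE 0.10, edgeR adjusted p = 0.0471). Their interactions were 1.98 (SE 0.26, edgeR adjusted p = 0.0167) and 1.45 (SE 0.19, edgeR adjusted p = 0.0167). The other 9 genes taken by the naming rule, Nrcam, Flrt1, Mical2, Sh3bp1, Srgap1, Abl2, Srgap2, Ptk2 and Myo10, had within-line differences of -0.18 to 1.05 and adjusted p values of 0.447 to 0.717.

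For the 3 genes with the smallest p within lines, the genes with the most similar log2 CPM over the 8 libraries were listed as a description, since the 8 libraries share lines and constructs. Closest to Sema3f were Gas1 (Pearson r = 0.984), Gab2 (0.982) and Fgfrl1 (0.979). Closest to Plxna3 were Rapgefl1 (0.991), Bmper (0.987) and Cnksr2 (0.986). For Sema3e they were RP24-364K9.3 (0.971), Tnfrsf21 (0.960) and Canx (0.953).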

How the data were processed

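Total RNA of 4 iKPC cell lines was sequenced, 1 WT-USP21 and 1 ED-USP21 library per line. The authors deposited raw read counts, 1 whole number per gene and library. Per the submitters' processing notes the authors used CASAVA, STAR, TopHat, Cufflinks and HTSeq with the build mm9, and versions and strand setting are not given in the sources used here. Reads assigned to no gene, 11.4% to 20.6% of the total, were left out. With 72828184 to 107551210 gene counts per library, a count of 0 allows 0.0289 to 0.0405 CPM. Whether the libraries of a line came from separate cultures is not said, so p-values measure the spread between these libraries.

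From the counts, edgeR 4.0.16 (R 4.3.3) gave log2 differences, standard errors (absolute log2 difference over the square root of F) and p-values by its quasi-likelihood test, with TMM scaling, filterByExpr on low counts, and Benjamini-Hochberg adjustment over all genes tested. A gene was called at an adjusted p under 0.05. Construct fits filtered genes by construct, the line fit by line 1 or not. CPM are scaled by TMM library sizes, and single-line differences are of log2 CPM with a prior count of 2. Reads of genes under 1 CPM were compared by ratios with exact (Clopper-Pearson) 95% intervals. Exon lengths and overlaps come from GENCODE M21 and promoters from RefSeq, both of GRCm38, a later build than mm9, so the promoter positions are not those of the counted genes. Alternatives were DESeq2 1.42.0, limma-trend (limma 3.58.1), relative log expression scaling, other filters, the line block or none, and leaving out each line.

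The line numbers pair the libraries, since both libraries of a number are of the same cell line. Deviations from the construct means correlated across genes at 0.770, 0.503, 0.468 and 0.347 within lines 1 to 4. For the WT-USP21 library of line 4 the ED-USP21 library of line 2 was as close (0.364). On simulated counts with 200 genes changed 4-fold, the 4 fits recovered 97.5% to 100% of them, with 9 to 11 false calls. The simulation gave every gene the same dispersion. In its construct fits no construct difference varied between lines. For the fit over libraries, the simulation also held no difference between lines. It checks that the fits run as meant, and does not give their power for the smaller differences seen here. The 44 genes, the pathway lists, the markers and the choice of line 1 were made with earlier results of these data known. The naming rule took genes called in any fit, up to 14 with the smallest p within lines, the 10 highest per length, and for each pathway list the 3 with the smallest p. An allele shared by all lines and single values of a few marker genes are not reported here.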

Additional observations from a re-analysis of the deposited data

Results flagged for a closer look

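In 66 groups of 4 libraries, 33 genes by 2 constructs, 15 held a library far from the other 3 for its gene. A rate of 1 in 20 for independent groups would give 3.3, but these groups share lines and are not independent. The count was not made over all genes. Of the 19125 genes tested for line 1 against lines 2 to 4, 31.6% passed. In 14 of the 15 groups the outlying library was of line 1. In WT-USP21 libraries, line 1 stood high for Sema3a (9.01 CPM, the others at most 2.74), Sema4c (29.0, at most 17.5), Sema4g (25.9, at most 3.15) and Sema6c (8.42, at most 3.21), and low for Slit1 (1.6, the others at least 3.41). In ED-USP21 libraries, line 1 stood high for Sema3a (40.3 CPM, the others at most 1.53), Sema4f (15.7, at most 3.67), Sema4g (12.2, at most 4.38), Plxna2 (132, at most 107), Plxna3 (25.6, at most 15.4) and Plxnb1 (12.5, at most 3.68), and low for Sema4d (5.45, the others at least 8.25), Sema6b (20.3, at least 40.1) and Slit1 (1.06, at least 5.56). The remaining library was of line 3, with Sema4d at 11.1 CPM with WT-USP21 and the others at most 6.86.

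The construct difference in line 1 differed from that in lines 2 to 4 by the edgeR interaction test for 8 genes. On the log2 scale, line 1 minus lines 2 to 4, the values were -2.79 for Sema3a, 0.55 for Sema3e, 1.28 for Sema4a, -2.37 for Sema4f, 1.57 for Sema4g, -0.60 for Plxna4, -1.87 for Plxnb1 and -2.88 for Ntn1. Line 1 also had the largest gap in Usp21 between constructs, 11.3-fold, and its part in these differences was not tested.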

How the results depend on the processing

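The largest dependence was on lines. Between constructs over libraries, 0 to 7 of the 44 genes and 0 to 383 genes in all were called with 1 line left out, the highest without line 1. Within lines these ranges were 0 to 10 and 0 to 746. For the interaction they were 0 to 12 and 0 to 2112, with none without line 2. For line 1 against the others they were 18 to 28 and 4013 to 10159. The replicate block, pairing libraries by line, took the calls over libraries to 4 genes in all, and without a replicate block the within-line fit called 0 genes in all; neither called any of the 44. DESeq2 called 60 genes in all over libraries, 6 of the 44 and 407 genes in all within lines, and 1625 genes in all in the interaction, and limma-trend called 3 genes in all over libraries. With no filter on low counts 58 genes in all were called within lines and 1666 in the interaction, and with a mean of at least 5 CPM 0 within lines and 3970 for line 1 against the others. Scaling by relative log expression left the count of the 44 at 0, 0, 8 and 19 in the 4 comparisons. Among the log2 differences of the genes named from the 44, 9 that had not passed changed sign under an alternative. Within lines, leaving out 1 line at a time gave -0.14 to 0.087 for Sema4d, -0.14 to 0.14 for Sema7a, -0.073 to 0.16 for Plxna2, -0.043 to 0.13 for Unc5b, -0.50 to 0.63 for Sema3a and -0.48 to 0.11 for Sema4g, with the positive end for Sema3a without line 1. Without the block Sema4d gave 0.0050 and Sema4g 0.52. For line 1 against the others, leaving out a line gave -0.012 to 0.045 for Plxnb2 and -0.38 to 0.14 for Ntn1. ED-USP21 libraries alone gave -0.086 for Plxnb2, -0.015 for Ntn4 and 1.71 for Ntn1, which passed, and a mean of at least 5 CPM gave -0.075 for Plxnb2. The causes of these shifts were not tested, beyond the fewer lines or genes that an alternative uses.

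Limits are the single difference of line 1, 3 lines on the other side, 1 library per construct and line, a Usp21 level that differs between constructs, and unknown strand. Genes under 1 CPM rest on few reads, and small differences in them were not detectable at this depth.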
